A study of Mus musculus with 9 samples.

Results

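The endothelin system is described here by 6 genes, the ligand genes Edn1, Edn2 and Edn3, the receptor genes Ednra and Ednrb, and the converting enzyme gene Ece1. They were chosen by symbol from the 48587 genes of a raw count table of mouse retinas, and all 6 had counts in each of the 9 samples. Each sample was a pool of 6 retinas from C57BL/6J mice 12 weeks old, and each group had 3 samples. In the RVO group (retinal vein occlusion), the large veins of an eye were treated with a laser to close them after systemic injection of 200 mg/kg of eosin Y, a dye that strengthens the laser effect. In the control group, the fellow eye received laser spots of equal number and intensity, placed between the large vessels, so that its retina had laser damage without closed veins and its mouse had also received eosin Y. Retinas of both groups were taken at day 2 after the laser, and untreated retinas received no laser. The comparison of RVO with control retinas therefore asks what vein occlusion adds to the laser injury, and each laser group against untreated retinas shows the laser treatment as a whole, with eosin Y and, for RVO, the occlusion included. Whether mice of the untreated group received eosin Y is not labelled. Which RVO and control pools held eyes of the same mice is not labelled. Both laser groups carry burns of the retina and closed veins can reopen within days, which limits the model, and the untreated retinas are the only ones without them.

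Endothelins are short peptides that constrict vessels and also signal between neurons and glia. Each is cut from a longer precursor by furin-type proteases and then by the endothelin converting enzyme, whose main form is Ece1. The type A receptor, encoded by Ednra, sits mainly on vascular smooth muscle and pericytes, where it drives constriction. The type B receptor, encoded by Ednrb, is found on endothelial cells and, in the retina, on Mueller cells and astrocytes. Edn1 is the main endothelin of vascular endothelium, Edn2 is known from the injured retina as a signal of photoreceptors to Mueller cells, and Edn3 is known for its role in melanocytes and enteric neurons, which depend on Ednrb in development.

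The stretches that encode the mature peptides are shown because they separate the 3 ligands whose levels differed so widely. Each is 63 bases long (21 codons) and lies in exon 2 on the plus strand of its gene (GRCm38): Edn1 at chr13:42303649-42303711, Edn2 at chr4:120161951-120162013 and Edn3 at chr2:174761749-174761811. Capitals mark positions at which the 3 genes do not all share a base.
Edn1: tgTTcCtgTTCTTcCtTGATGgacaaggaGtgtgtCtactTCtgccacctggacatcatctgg
Edn2: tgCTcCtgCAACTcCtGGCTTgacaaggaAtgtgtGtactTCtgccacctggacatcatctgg
Edn3: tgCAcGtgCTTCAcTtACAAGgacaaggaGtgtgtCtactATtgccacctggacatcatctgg
Edn1 and Edn2 were identical at 53 of the 63 bases and in 18 of the 21 encoded residues. Edn3 shared 50 bases with Edn1 and 48 with Edn2, and 15 residues with each. No window of 50 bases, the read length, of any ligand transcript was shared with another gene, so reads of the ligands could be told apart by sequence. Edn1 overlaps the exons of Gm47118, on the opposite strand, by 35 bases.

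The genes lie apart in the genome (GRCm38): Edn1 at chr13:42301476-42307990, Edn2 at chr4:120161206-120167360, Edn3 at chr2:174760619-174784042 and Ece1 at chr4:137862237-137965229 on the plus strand, and Ednra at chr8:77663031-77724464 and Ednrb at chr14:103814625-103844402 on the minus strand. The start windows of Edn2 and Ednrb, the 2 members that rose most, are printed beside that of Edn1, the ligand that changed far less. Each runs from 250 bases before to 30 bases after the RefSeq start (GRCm38.p6, strand of the gene), at chr4:120160956-120161235 for Edn2, chr14:103843672-103843951 for Ednrb and chr13:42301226-42301505 for Edn1, and capitals mark the motifs that were found.
Edn2: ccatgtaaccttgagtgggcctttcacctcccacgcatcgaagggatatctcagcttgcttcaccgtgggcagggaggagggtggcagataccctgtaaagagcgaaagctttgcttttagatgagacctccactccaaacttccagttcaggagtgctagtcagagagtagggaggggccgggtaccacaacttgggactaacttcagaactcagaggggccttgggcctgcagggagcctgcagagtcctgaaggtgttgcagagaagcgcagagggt
Ednrb: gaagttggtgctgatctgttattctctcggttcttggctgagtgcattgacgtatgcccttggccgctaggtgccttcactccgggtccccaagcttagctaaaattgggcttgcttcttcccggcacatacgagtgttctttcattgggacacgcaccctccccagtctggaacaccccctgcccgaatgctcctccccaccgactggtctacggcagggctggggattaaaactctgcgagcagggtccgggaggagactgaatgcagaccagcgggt
Edn1: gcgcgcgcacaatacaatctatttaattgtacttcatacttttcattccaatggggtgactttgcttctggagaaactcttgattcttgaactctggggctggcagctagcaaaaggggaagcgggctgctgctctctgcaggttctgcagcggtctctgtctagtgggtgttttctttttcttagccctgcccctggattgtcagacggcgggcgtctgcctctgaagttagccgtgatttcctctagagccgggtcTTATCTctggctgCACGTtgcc
The letter patterns searched on both strands were the core of the hypoxia response element (ACGTG), the AP-1 site (TGANTCA), the STAT site (TTCNNNGAA) and a GATA site (AGATAA). Of 32851 windows of this length, 18.5% held ACGTG, 7.46% TGANTCA, 7.83% TTCNNNGAA and 10.7% AGATAA. The windows of Edn2 and Ednrb held none of these letters. That of Edn1 held ACGTG at bases 22 to 26 and AGATAA at bases 9 to 14 after the start, both on the minus strand. Among the other members, the third of the annotated Ece1 starts held ACGTG on both strands, between bases 90 and 85 before the start. A match is a run of letters and not a measured binding site.

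The untreated libraries held 12377572 to 15245869 counts, the control libraries 18897218 to 23419497 and the RVO libraries 21022997 to 28993921. Values are given as normalised CPM (counts scaled to libraries of 1000000 reads with TMM factors), and as CPM per kb of exon length where genes are compared with each other. RVO replicate 2 stood apart. Its counts differed from RVO replicates 1 and 3 by chi-square values of 59.5 and 32.1 per degree of freedom, against 9.8 between the latter. Lens markers summed to 800 CPM in it against 18.8 and 91.1 CPM in the other RVO samples, 20.96 to 232 CPM in control and 0.929 to 3.05 CPM in untreated samples. All laser samples thus lay above all untreated ones, and the source of these transcripts was not tested. The members' results that rest on this sample and the counts of the gene lists are therefore also given without it where they change. Fold changes were tested with edgeR's quasi-likelihood test, with p-values adjusted by Benjamini-Hochberg over all genes tested, and genes were called at an adjusted p under 0.01.

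Edn2 was the ligand that rose with the laser. Untreated retinas held 1.998, 2.66 and 2.14 CPM, from only 22 to 34 counts. Control retinas held 77.4, 121 and 91.4 CPM, and RVO retinas 180.1, 132 and 168 CPM. Each RVO sample was above each control sample, and both laser groups lay far above the untreated samples. The mean rose from 2.27 ± 0.346 CPM in untreated to 96.7 ± 22.4 CPM in control and 160.2 ± 25.1 CPM in RVO samples (SD, n = 3 each). Against untreated retinas, Edn2 was 71.9-fold higher in RVO (log2 fold change 6.17 ± 0.18, SE, edgeR adjusted p = 9.61e-07). This was rank 85 of the 16380 genes tested, ordered by rise. In control retinas it was 42.9-fold higher (log2 fold change 5.42 ± 0.20, SE, edgeR adjusted p = 5.75e-09), rank 47 of 16066 genes. Between RVO and control the difference was 1.66-fold (log2 0.73 ± 0.18, 95% interval 0.31 to 1.16), and its edgeR adjusted p of 0.0216 missed the threshold of 0.01. Without RVO replicate 2 this log2 difference was 0.84 and passed it, with an edgeR adjusted p of 0.00160, beside 36.4% of all genes called. The log2 fold change of RVO against untreated retinas was then 6.31. With RVO replicate 1 left out instead, the edgeR adjusted p of RVO against control was 0.057. Edn2 is among the genes that the study listed from these same samples, so its rise is no independent evidence.

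These are values of whole retinas, in which fewer cells of a type and less RNA per cell cannot be told apart. Markers of rods, the cells named above as a source of Edn2, moved the other way. The rod markers Nrl, Gnat1, Pde6b, Sag and Cnga1 summed to 40240 to 42200 CPM in untreated, 24770 to 29090 CPM in control and 18450 to 19600 CPM in RVO samples, none was at 0, and their part in the result was not tested.

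Edn1, the endothelial ligand, differed much less. Untreated samples held 2.36, 2.81 and 2.93 CPM, control samples 3.17, 4.19 and 3.31 CPM, and RVO samples 4.01, 3.95 and 4.62 CPM. Both laser groups were above all untreated samples, and they overlapped each other. The RVO mean of 4.19 ± 0.368 CPM was 1.58-fold the untreated mean of 2.70 ± 0.300 CPM (SD, n = 3 each; log2 0.66 ± 0.18, SE), and the edgeR adjusted p of 0.0129 missed the threshold. Without RVO replicate 2 it was 0.00594, where 64.4% of all genes were called. Control retinas, at 3.55 ± 0.557 CPM (SD, n = 3), differed from untreated ones by a log2 value of 0.40 (95% interval -0.02 to 0.82, edgeR adjusted p = 0.0860). The difference between RVO and control was 0.24 (95% interval -0.16 to 0.65, edgeR adjusted p = 0.304).

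Edn3 was low, and single samples moved its values. Untreated samples held 2.27, 1.49 and 1.71 CPM and control samples 2.22, 1.11 and 0.837 CPM. RVO samples held 1.78, 4.76 and 1.495 CPM, of which the middle value is RVO replicate 2. The other RVO samples lay within the range of the untreated ones. No comparison passed the test, and log2 fold changes were 0.58 for RVO against untreated (95% interval -0.49 to 1.66, edgeR adjusted p = 0.297), -0.36 for control against untreated (edgeR adjusted p = 0.378) and 0.94 for RVO against control (edgeR adjusted p = 0.204). Without RVO replicate 2 the first of these turned to -0.08 and the last became 0.24. Without Control replicate 1, the highest of its group, control against untreated retinas came to -0.87 (edgeR adjusted p = 0.0286) and RVO against control retinas to 1.45, and without Control replicate 3 the former was -0.08. The 3 genes whose log2 CPM were most like that of Edn3 over the 9 samples, among 17111 other genes, were Slc24a5 (Pearson r = 0.966), Tyrp1 (0.942) and Pmel (0.912), which all act in the melanosome. The 8 markers of pigment epithelium and melanocytes summed to 346, 778 and 479 CPM in RVO replicates 1 to 3, to 371.5 to 431 CPM in control and to 393 to 436 CPM in untreated samples. The highest Edn3 value and the highest pigment sum thus fell in the same sample, which also had the highest lens sum. RVO replicate 3, with the next pigment sum, had the lowest Edn3 value of its group. Much of the pigment sum was Ttr, with means of 211, 244 and 234 CPM in untreated, control and RVO samples. The sum therefore does not follow the melanosome genes alone. Dct, Tyr, Mlana, Pmel, Tyrp1 and Best1 had their highest mean in RVO samples, and Rpe65 had its lowest there. The part of pigment cells in the Edn3 value was not tested.

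**Figure D1:**
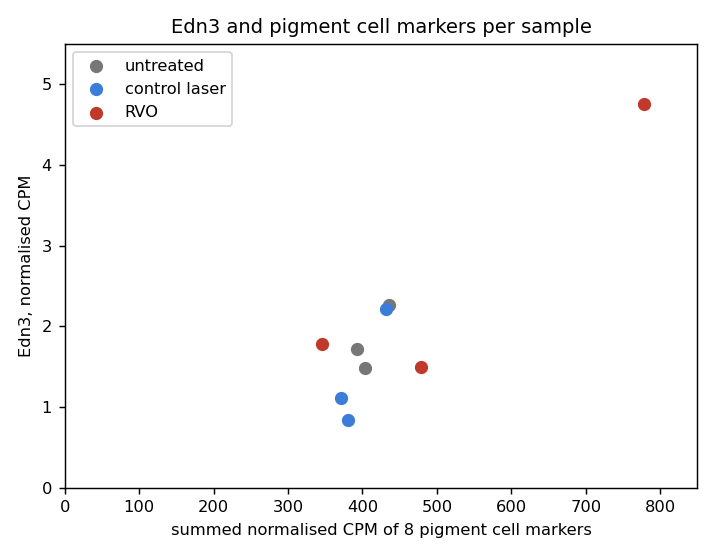
Edn3 in normalised CPM (vertical axis) against the summed normalised CPM of 8 pigment epithelium and melanocyte markers (horizontal axis), 1 point per sample, coloured by group. RVO replicate 2 stands alone at the upper right, at 778 CPM of markers and 4.76 CPM of Edn3. Much of the marker sum is Ttr.

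The make-up of the ligand transcripts followed from these values. Per kb, Edn2 made up 47.4 ± 3.97% of the 3 ligand transcripts in untreated, 97.0 ± 0.582% in control and 97.6 ± 0.724% in RVO samples (SD, n = 3 each). Edn1 made up 38.8 ± 2.95% in untreated, 2.47 ± 0.203% in control and 1.77 ± 0.248% in RVO samples, although its own CPM was not lower there. Edn3 made up 13.8 ± 4.06% in untreated, 0.538 ± 0.383% in control and 0.631 ± 0.527% in RVO samples. The ratio of Edn2 to Edn1 per kb within a sample was 1.24, 1.38 and 1.08 in untreated, 35.5, 42.1 and 40.2 in control and 65.4, 48.7 and 53.1 in RVO samples, so that the 3 groups did not overlap. On the log2 scale it differed by 5.49 between RVO and untreated, 5.00 between control and untreated and 0.50 between RVO and control samples. Each of these had an exact two-sided permutation p of 0.1, the smallest that 3 against 3 samples can give (adjusted 0.12 over 6 ratio tests).

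Of the receptors, the type B receptor gene Ednrb rose in both laser groups. Untreated samples held 10.99, 10.94 and 8.57 CPM, control samples 36.4, 62.5 and 40.3 CPM and RVO samples 80.4, 69.0 and 103 CPM. The lowest RVO sample, replicate 2, lay just above the highest control sample, and no groups overlapped. The untreated mean was 10.2 ± 1.38 CPM, the control mean 46.4 ± 14.1 CPM and the RVO mean 84.3 ± 17.5 CPM (SD, n = 3 each). Against untreated retinas the rise of Ednrb was 8.49-fold in RVO (log2 3.09 ± 0.18, SE, edgeR adjusted p = 8.34e-06) and 4.64-fold in control retinas (log2 2.21 ± 0.19, SE, edgeR adjusted p = 1.05e-06). Between RVO and control it differed 1.82-fold (log2 0.86 ± 0.23, 95% interval 0.33 to 1.40), with an edgeR adjusted p of 0.0253 that missed the threshold. Without RVO replicate 2 this log2 difference was 0.97 with an edgeR adjusted p of 0.00349, beside 36.4% of all genes called. The log2 value of RVO against untreated retinas was then 3.23. Over the 9 samples Ednrb and Edn2 had a Pearson r of 0.974, which describes samples that share their group, and 1178 genes had an r over 0.95 with Ednrb.

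Markers of the glia that carry this receptor did not move as 1 group. The 7 Mueller cell markers summed to 4591 to 4846 CPM in untreated, 2855 to 3482 CPM in control and 1542 to 2392 CPM in RVO samples. Much of this sum was Glul, the glutamine synthetase gene, with means of 2599, 1254 and 651.5 CPM in that order. In control against untreated retinas 4 of the 7 fell and 1, the potassium channel gene Kcnj10, rose (log2 0.49), and in RVO against untreated retinas 4 fell. Of all genes 25.2% fell and 27.2% rose in the former comparison, and 24.6% fell in the latter. The 4 astrocyte markers include the gliosis gene Gfap. They summed to 43.4 to 47.0 CPM in untreated, 284 to 462.5 CPM in control and 252 to 368.5 CPM in RVO samples. The 2 called against untreated retinas by edgeR were Gfap (log2 3.38 in RVO and 3.83 in control) and Aldh1l1 (2.98 and 2.39). Both were higher, beside 27.4% of all genes in RVO and 27.2% in control against untreated retinas. S100b was lower (-0.95 and -0.16) and Pax2 higher (0.8 and 0.59), and neither was called. None of these markers was at 0 in a group, and their part in the Ednrb result was not tested.

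Ednra, the constricting receptor of vascular smooth muscle, was near the bottom of the measured range in all groups. It had 17 to 44 counts per sample. Values were 1.54, 2.11 and 1.21 CPM in untreated, 1.45, 1.62 and 1.80 CPM in control and 0.828, 1.87 and 1.19 CPM in RVO samples, and all groups overlapped. The log2 fold change was -0.31 for RVO against untreated (95% interval -1.14 to 0.52, edgeR adjusted p = 0.472), 0.02 for control against untreated (95% interval -0.53 to 0.58, edgeR adjusted p = 0.936) and -0.34 for RVO against control (95% interval -1.06 to 0.38, edgeR adjusted p = 0.414). Against untreated retinas, rises of the size seen for Ednrb lie outside these intervals, and changes that lie within them could not be detected with these samples. Without RVO replicate 2, which held the highest RVO value, RVO retinas differed by -0.66 from untreated (edgeR adjusted p = 0.0840) and by -0.73 from control retinas (edgeR adjusted p = 0.0436). Pericyte and smooth muscle markers summed to 99.9 to 116 CPM in untreated, 111 to 134 CPM in control and 82.3 to 161 CPM in RVO samples. Single markers moved both ways. Acta2 (means 5.54, 14.7 and 43.5 CPM in that order) and Tagln (4.77, 7.47 and 18.3 CPM) were called higher in RVO against untreated retinas. Rgs5 (67.1, 64.7 and 33.0 CPM) and Abcc9 (7.72, 6.41 and 1.92 CPM) were called lower, and 4 markers were not called. Of all genes 27.4% were higher and 24.6% lower there. The part of these cells in the Ednra values was not tested. Of the Ednra windows of 50 bases, 46 of 5427 were shared with a gene on the opposite strand, 4933431K23Rik, whose reads could not be told apart if strand was not used in counting. Of the Ednrb windows 0.376% and of the Ece1 windows 0.21% were shared with other genes.

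The balance of the receptors shifted towards type B. Per kb, the ratio of Ednrb to Ednra within a sample was 8.91, 6.56 and 8.84 in untreated, 31.8, 48.9 and 28.5 in control and 122, 46.9 and 109.8 in RVO samples. Both laser groups lay above the untreated samples, while RVO replicate 2 lay within the control range. Log2 ratios differed by 3.42 between RVO and untreated and by 2.14 between control and untreated samples, each with the smallest exact permutation p possible, 0.1 (two-sided, adjusted 0.12). Between RVO and control samples the log2 difference was 1.28, with an exact permutation p of 0.2 (two-sided, adjusted 0.2), and it was 1.71 without RVO replicate 2.

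**Figure D2:**
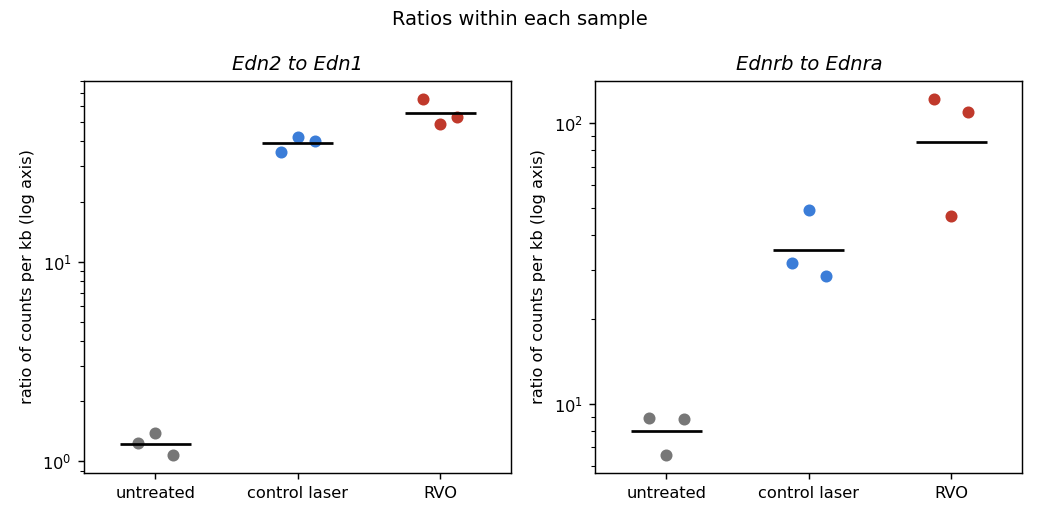
Ratio of Edn2 to Edn1 (left) and of Ednrb to Ednra (right) in each sample, in counts per kb of exon on a log axis, with lines at the geometric mean of each group of 3 samples. Untreated samples lie near 1 for the ligands and between 6.56 and 8.91 for the receptors, and all control and RVO samples lie above them.

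Ece1 was the most abundant member in untreated retinas and, with TMM scaling, the only member on opposite sides of them in the laser groups, which was not so with library size alone or with GC and length trends removed. Untreated samples held 56.0, 56.6 and 59.8 CPM, control samples 67.7, 73.4 and 69.5 CPM and RVO samples 46.3, 55.1 and 49.8 CPM. All control samples were above and all RVO samples below all untreated samples. In control retinas, at 70.2 ± 2.92 CPM against 57.5 ± 2.03 CPM in untreated ones (SD, n = 3 each), the rise was 1.24-fold (log2 0.31 ± 0.06, SE, edgeR adjusted p = 0.000694). This rise was absent when trends with GC content and exon length were removed (log2 -0.07, edgeR adjusted p = 0.297). In RVO retinas, at 50.4 ± 4.45 CPM (SD, n = 3), Ece1 differed from untreated ones by a log2 value of -0.16 (95% interval -0.35 to 0.04, edgeR adjusted p = 0.132), which became -0.56 when these trends were removed (edgeR adjusted p = 0.00103) and 0.05 when only library size was used for scaling. Against control retinas, RVO retinas had a log2 value of -0.47 ± 0.08 (SE, 95% interval -0.66 to -0.29), just past the limit of the call with an edgeR adjusted p of 0.0105. Without RVO replicate 2 it was -0.56 with an edgeR adjusted p of 0.000156, beside 36.4% of all genes called.

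The mean sum of endothelial markers was highest in control retinas too (327 CPM), but was not lowest in RVO retinas (199 CPM, against 163 CPM in untreated ones). Single markers differed. Pecam1, Cdh5 and Erg had their highest mean in RVO retinas, and Esam had its lowest there. The 8 markers summed to 161 to 165 CPM in untreated, 309.8 to 346 CPM in control and 143 to 261 CPM in RVO samples, and none was at 0. Much of this sum was Kdr, a VEGF receptor gene, with means of 128, 254 and 148 CPM in that order, while Cdh5 (9.70 and 10.2 CPM) and Pecam1 (15.5 and 16.3 CPM), which encode junction proteins, were about level in control and RVO retinas. Of the 8, 6 rose in control against untreated retinas and 3 in RVO against untreated retinas by the edgeR test, beside 27.2% and 27.4% of all genes. Between RVO and control none of the 8 was called, while 4 passed an unadjusted p under 0.05 (47.1% of all genes did). DESeq2 called 4 lower (and 23.9% of all genes), as did edgeR without RVO replicate 2 (and 36.4% of all genes). Their part in the Ece1 result was not tested.

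**Figure D3:**
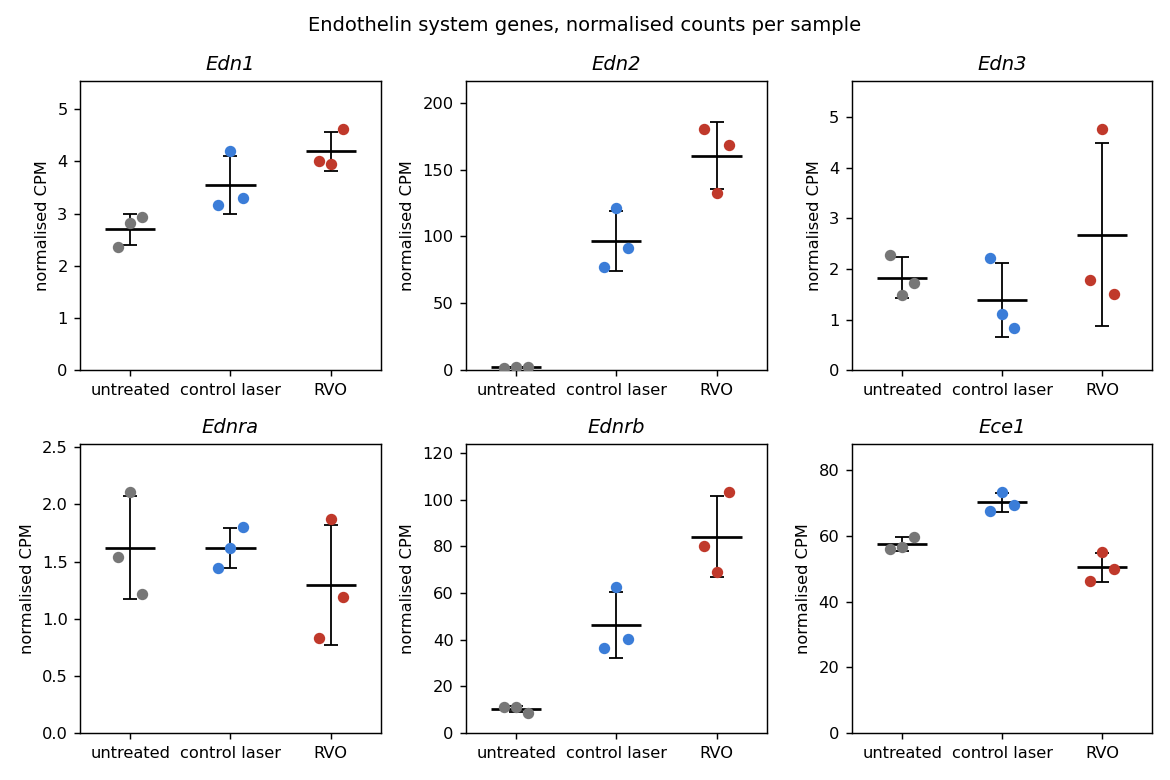
Normalised CPM of the 6 genes in each sample (points), with the group mean (line) and SD (bars, n = 3), on linear axes that start at 0 and differ between panels. Edn2 and Ednrb rise from untreated over control to RVO samples without overlap, Ece1 is highest in control and lowest in RVO samples with this TMM scaling (not lowest with library size alone), and Edn3 has a single high RVO sample at 4.76 CPM.

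The 3 comparisons can be read against the whole transcriptome. In RVO against untreated retinas, 2 of the 6 members were called (Edn2 and Ednrb, both higher), where 52.1% of all genes tested were called, 27.4% higher and 24.6% lower. In control against untreated retinas 3 were called (Edn2, Ednrb and Ece1, all higher), beside 52.4% of all genes, 27.2% higher and 25.2% lower. These shares are near the background, and by rise Edn2 and Ednrb were ranks 85 and 423 of 16380 genes in RVO against untreated retinas. In RVO against control retinas edgeR called none of the members, beside 3.34% of all genes, 2.70% higher and 0.634% lower. Of the members, 3 passed an unadjusted p under 0.05 (Edn2, Ednrb and Ece1), beside 47.1% of all genes, the same 3 were under an adjusted p of 0.05, beside 34.6% of all genes, and DESeq2 called 3 at 0.01, beside 23.9% of all genes. Groups did not overlap for 4 members in RVO against untreated retinas (73.4% of all genes), 4 in control against untreated (70.0%) and 3 in RVO against control (52.5%).

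**Figure D4:**
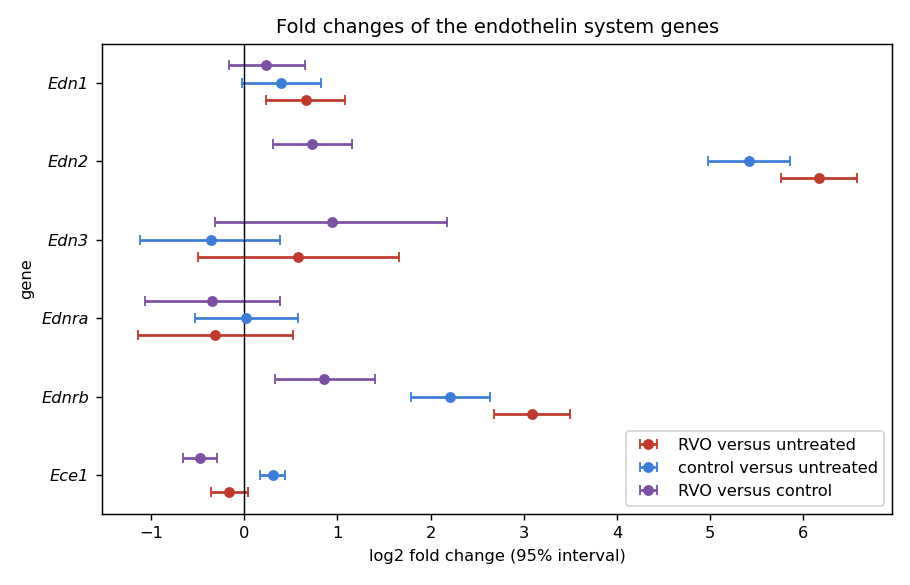
Log2 fold changes of the 6 genes (horizontal axis) in the 3 comparisons, as points with 95% intervals from the edgeR fit. Edn2 and Ednrb lie far to the right in both comparisons with untreated retinas, at 6.17 and 3.09 for RVO, while the intervals of Edn3 and Ednra include 0 in all comparisons.

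The order of the levels per kb changed with the laser. In untreated retinas Ece1 stood highest at 10.8 CPM per kb, followed by Ednrb (2.38), Edn2 (1.55), Edn1 (1.26), Edn3 (0.443) and Ednra (0.296), and the sample ranges overlapped between Edn2 and Edn1 and between Edn3 and Ednra. In control retinas Edn2 stood first at 66.1 CPM per kb, followed by Ece1 (13.2), Ednrb (10.9), Edn1 (1.66), Edn3 (0.337) and Ednra (0.296), with overlap between Ece1 and Ednrb and between Edn3 and Ednra. In RVO retinas the order was Edn2 (109.6 CPM per kb), Ednrb (19.75), Ece1 (9.51), Edn1 (1.96), Edn3 (0.651) and Ednra (0.236), and no neighbouring ranges overlapped, though Edn3 and Ednra differed by less than the SD of Edn3 (0.439).

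Genes of the processing and breakdown of endothelins moved in both directions. Of 11 listed enzymes 9 could be tested, as Kel and Cma1 were too low. In RVO against untreated retinas 4 rose and 3 fell, beside 27.4% and 24.6% of all genes (median log2 fold change -0.34, against 0.01 over all genes). When trends with GC content and length were removed, 2 rose and 3 fell, and the share of all genes called went from 52.1% to 44.5%. The largest rises were in Ecel1 (log2 4.64 ± 0.33, SE), which is named for its likeness to the converting enzymes but is known as a protease of injured neurons, and in Furin (1.22 ± 0.10), which cuts the endothelin precursors. The largest falls were in the furin-type proteases Pcsk6 (-1.87 ± 0.40) and Pcsk5 (-0.90 ± 0.22). In control against untreated retinas 3 rose, with Ecel1 at 2.01 and Furin at 0.71, and 1 fell, which was Mme (-0.93), the gene of neprilysin, a protease that degrades endothelins (median 0.09, against 0.01 over all genes). Of all genes 27.2% rose and 25.2% fell in that comparison. With the GC and length trends removed, 1 of the enzymes rose and 1 fell, and the share of all genes called went from 52.4% to 36.5%. In RVO against control retinas Ecel1 was higher by 2.62 (edgeR adjusted p = 0.00459) and Ece2, the second converting enzyme, was lower (-0.80, edgeR adjusted p = 0.00928), and the median was 0.16. These 1 higher and 1 lower (beside 2.70% and 0.634% of all genes) became 2 and 3 with DESeq2 (23.9% of all genes called). They became 3 and 3 without RVO replicate 2 (36.4% called) and 0 and 0 with the replicate block. Under the block edgeR called none of all genes, and 5 of the 9 passed an unadjusted p under 0.05 (42.8% of all genes did). Ecel1 was also listed by the study from these samples, so its rise is no independent evidence.

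Among 20 genes of receptor signalling, 7 rose and 6 fell in RVO against untreated retinas (beside 27.4% and 24.6% of all genes, median 0.10 against 0.01 over all genes). The largest rises were in Gna12 (log2 1.27 ± 0.09, SE), a subunit of heterotrimeric G proteins, and in Itpr3 (1.09 ± 0.18), a calcium channel of internal stores. The largest falls were in Plcb1 (-1.94 ± 0.20), a phospholipase below Gq, and in Prkca (-1.47 ± 0.11), a protein kinase C that in the retina is also known as a marker of rod bipolar cells. In control against untreated retinas 8 rose and 4 fell (beside 27.2% and 25.2% of all genes, median 0.05). Itpr3 was at 0.72, Gna12 at 0.69, Plcb1 at -0.81 and Prkca at -0.74. With trends with GC content and length removed, 3 of 19 tested rose and 3 fell. The share of all genes called also went from 52.4% to 36.5% there. In RVO against control retinas Gna12 was higher by 0.57 (edgeR adjusted p = 0.00860) and Prkca was lower (-0.74, edgeR adjusted p = 0.00989), with a median of -0.06. DESeq2 called 3 higher and 5 lower (23.9% of all genes called), and edgeR without RVO replicate 2 called 4 and 6 (36.4% called). With GC and length trends removed it called 1 and 0 (3.24% called), and with the replicate block 0 and 0. Under the block 11 passed an unadjusted p under 0.05 (42.8% of all genes did).

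Genes of nitric oxide and prostanoids, vessel mediators that act beside endothelins, showed 2 rises and 3 falls among 9 in RVO against untreated retinas (median -0.20, against 0.01 over all genes). Of all genes 27.4% rose and 24.6% fell there, so these counts are near the background. Ptgs2, the inducible cyclooxygenase, rose by 4.35 ± 0.54 and Nos2, the inducible nitric oxide synthase, by 2.19 ± 0.43 on the log2 scale (SE). Gucy1b3 (-1.68 ± 0.24) and Gucy1a3 (-1.61 ± 0.24), the subunits of the guanylate cyclase that senses nitric oxide, fell. In control against untreated retinas Ptgs2 (2.72) and Nos3 (0.81), the endothelial synthase, rose, and Gucy1b3 (-0.58) and Gucy1a3 (-0.52) fell. These 2 each way (median 0.26) stand beside 27.2% higher and 25.2% lower of all genes. In RVO against control retinas edgeR called none of the 9 (median -0.72, against 0.02 over all genes). All 9 passed an unadjusted p under 0.05 (47.1% of all genes did). DESeq2 called 2 higher and 4 lower (23.9% of all genes called), and edgeR without RVO replicate 2 called 2 higher and 6 lower (36.4% called).

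The LIF axis links injured photoreceptors to Mueller cells and is known to run beside Edn2 in the damaged retina. Of its 10 genes 7 rose and 1 fell in RVO against untreated retinas (beside 27.4% and 24.6% of all genes, median 3.12 against 0.01 over all genes). Lif, the cytokine itself, rose by 6.05 ± 0.26 on the log2 scale and Socs3, a feedback inhibitor of its signalling, by 5.85 ± 0.16 (SE), while Jak1 fell (-0.47 ± 0.07). In control against untreated retinas 7 rose and 2 fell (beside 27.2% and 25.2% of all genes, median 2.40). Socs3 was at 4.59, Cebpd, a transcription factor of acute responses, at 4.12, Jak2 at -0.47 and Jak1 at -0.34. In RVO against control retinas Lif (2.11, edgeR adjusted p = 0.00564) and Cebpd (1.32, edgeR adjusted p = 0.00860) were higher (beside 2.70% of all genes, median 0.60). Without RVO replicate 2 edgeR called 8 higher, where 36.4% of all genes were called in either direction. DESeq2 called 7 higher, where 23.9% were called. With the replicate block 0 were called, and 9 were under an unadjusted p of 0.05 (42.8% of all genes were). Without RVO replicate 3, Control replicate 2 or Control replicate 3 edgeR called 0 genes of the whole table, so none of these lists held a call there. Lif, Socs3 and Cebpd were listed by the study from these samples and are no independent evidence. Leukocyte markers moved along, at 10.1 to 13 CPM in untreated, 26.7 to 42.2 CPM in control and 67.1 to 106 CPM in RVO samples, and their part was not tested.

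**Figure D5:**
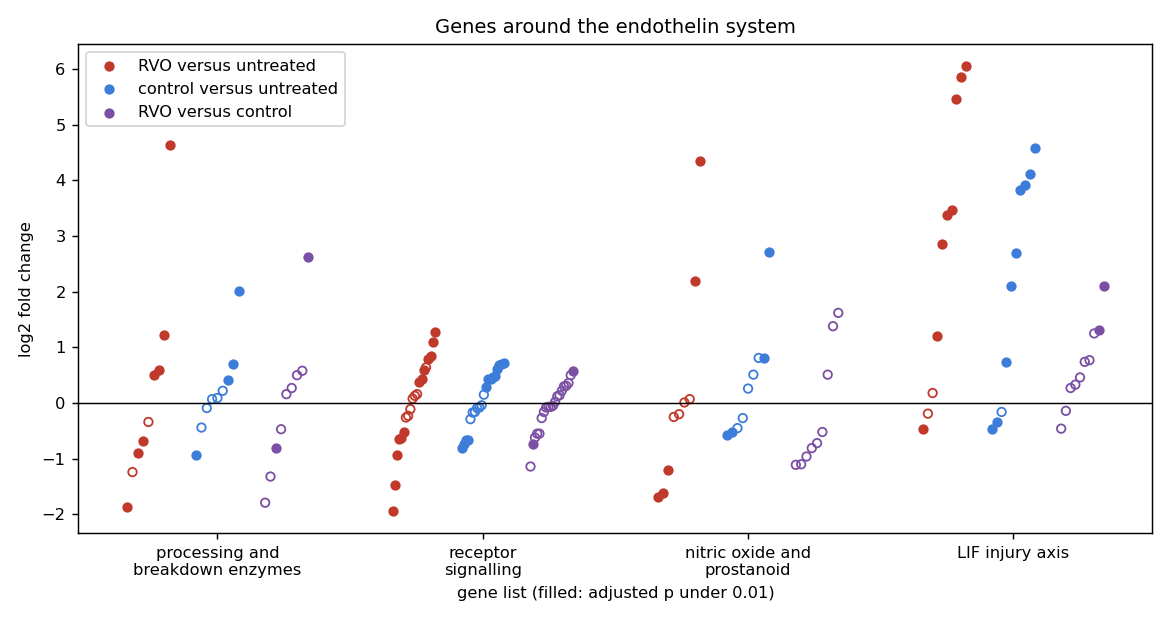
Log2 fold changes of each tested gene (points) in the 4 gene lists and the 3 comparisons, filled where the edgeR adjusted p was under 0.01. The enzyme and signalling lists spread to both sides of 0, and most genes of the LIF axis lie above it in both comparisons with untreated retinas, up to 6.05.

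The genes most like the other members over the 9 samples were read from Pearson r of log2 CPM among 17111 genes. For Edn2 they were Esyt1 (0.999), Aldh16a1 (0.998) and RP23-98C9.5 (0.997), and 1296 genes had an r over 0.95 with it. For Ednrb they were Lamtor5 (0.997), Ano10 (0.996) and Commd7 (0.995). Edn1 had Aldh3a2 (0.977), Sumf1 (0.975) and Gm8606 (0.972) nearest to it, and 37 genes over 0.95. Ece1 had St3gal3 (0.998), Mmd2 (0.990) and Stk32c (0.985), and 72 genes over 0.95. Ednra was closest to Vmac (0.930), Mogat1 (0.923) and 1600029O15Rik (0.911), and no gene passed 0.95. These values describe samples that share group and library, and a high r is common for genes that, like Edn2 and Ednrb, separate the 3 groups.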

How the data were processed

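RNA of 9 pools of retinas was sequenced as single reads of 50 bases from stranded, poly-A selected libraries. The authors mapped the reads with STAR 2.5.2b to GRCm38, using gene models of Gencode vM11, and counted them per gene with featureCounts (Subread 1.5.1). The deposited values are raw counts per gene, without normalization. Whether strand was used and how reads matching several genes were treated is not given in the sources used here. Of 48679 names, 92 were spike-ins with 0 counts, which were left out.

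The tests were run pairwise between groups with edgeR 4.0.16 (R 4.3.3), after filterByExpr and TMM scaling (factors 0.890 to 1.08 over the 9 samples). DESeq2 1.42.0 was the alternative test. The biological coefficient of variation came to 7.49% for control with untreated samples, and to 13.8% and 14.4% for RVO with untreated and with control samples. Replicates are pools of retinas, so p-values measure the spread between pools, and no pair of samples agreed within sampling noise (chi-square 3.34 to 59.5 per degree of freedom within groups). A count of 3 in a sample corresponds to 0.0956 to 0.273 CPM, and all members had at least 17 counts in each sample. Exon lengths and coordinates come from GENCODE vM21, on the same build, in which 46372 names matched 1 gene. Start windows come from RefSeq. Within-sample ratios used counts plus 0.5 per kb and exact permutation tests. On simulated counts with 200 changed genes, the test of RVO against control found 61% of 2-fold and 86% of 4-fold changes with 1 false call among 16874 genes. For RVO against untreated it found 52% and 92% with 7 false calls among 16380 genes, and for control against untreated 89% and 92% with 5 false calls among 16066 genes. In the data far more genes differed (52.1% and 52.4% were called against untreated retinas). The simulation also held no sample set apart like RVO replicate 2, so these rates need not hold for the data.

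The members and gene lists were chosen with earlier results of these data known. Named were the 6 members, the 2 largest rises and falls among the called genes of each list and comparison, and the 3 genes most like each member by Pearson r. Alternatives were other scalings, filters, tests and thresholds, a fit of all 9 samples, the replicate block, removal of trends with GC content and length, and each sample left out. The effects of these settings on the lists were added after seeing the data. The sum over 5 rod markers was set after seeing the data, and a further marker of that list is not reported here. The number of sample columns not used was 0.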

Additional observations from a re-analysis of the deposited data

Results flagged for a closer look

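Ece1 stood out because its samples lay on opposite sides of the untreated samples in the laser groups. The RVO samples, at 46.3 to 55.1 CPM, were all below the untreated samples at 56.0 to 59.8 CPM, and the control samples, at 67.7 to 73.4 CPM, were all above them. The difference between RVO and control, tested directly, was -0.47 on the log2 scale with an edgeR adjusted p of 0.0105, and over the alternatives it lay between -0.56 and -0.43 with adjusted p between 4.75e-05 and 0.0567. The opposite sides depend on the scaling. With GC and length trends removed, both laser groups were lower than untreated retinas (-0.56 for RVO and -0.07 for control), and with library size alone both were higher (0.05 and 0.48).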

How the results depend on the processing

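The direction was the same in all 15 alternatives for Edn2, Ednrb and Edn1 in each comparison, and Edn2 and Ednrb were called against untreated retinas in all of them. The number of members called in RVO against untreated retinas was 4 when trends with GC content and length were removed. Edn1 and Ece1 were added there, and 44.5% of all genes were called. In RVO against control retinas it was 3 with no filter on low counts (11.1% of all genes called) and with the DESeq2 Wald test (23.9%). It was also 3 in the fit of all 9 samples (22.5%) and at an adjusted p under 0.05 (34.6%), against 0 as reported (3.34%). With 1 sample left out it ranged from 0 to 3 there, with 3 only without RVO replicate 2, beside 36.4% of all genes called. It ranged from 2 to 3 for RVO against untreated, beside 35.1% to 64.4% of all genes. For control against untreated it was 3 throughout, beside 41.6% to 48.7% of all genes. Adjusted p of edgeR or DESeq2 for RVO against control ranged from 0.00124 to 0.0850 for Edn2, from 0.00152 to 0.0983 for Ednrb and from 4.75e-05 to 0.0567 for Ece1, and each passed an unadjusted p under 0.05 in all settings.

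Directions turned only for values that had not been called, and for 1 that had. Ece1 was 0.05 for RVO against untreated with library size alone, and, as the called value, -0.07 for control against untreated with GC and length trends removed. Edn3 for RVO against untreated was -0.08 without RVO replicate 2 and up to 0.87 with another sample left out. Ednra for control against untreated was -0.06 without Control replicate 3, -0.02 without Untreated replicate 1 and -0.18 without Untreated replicate 3, and up to 0.25 without another sample. The cause was not tested. Ratios kept their direction with 0 or 5 counts added and with each sample left out, between 3.16 and 3.85, 1.91 and 2.30, and 1.02 and 1.71 for Ednrb to Ednra, and 5.37 and 5.59, 4.90 and 5.08, and 0.38 and 0.59 for Edn2 to Edn1 with a sample left out, in the order RVO against untreated, control against untreated and RVO against control. Scaling by library size alone moved the median log2 fold change to 0.22, 0.19 and 0.07 in that order, and the share of called genes that were higher from 52.7% to 68.5% and from 51.9% to 70.4% against untreated retinas.

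Over all genes, RVO against control was the unstable comparison. The 563 genes called became 3309 with no filter, 4037 with DESeq2, 3853 in the fit of all 9 samples and 892 with library size alone, with 47.4%, 46.1%, 47.5% and 77.3% higher against 81.0% as reported. They became 29, 6257 and 0 without RVO replicates 1, 2 and 3 and 1, 0 and 0 without Control replicates 1, 2 and 3, with 6440, 9839, 6100, 6299, 6916 and 6311 genes under an unadjusted p of 0.05. For control against untreated, 5693 genes in place of 8416 were called with GC and length trends removed.

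Whether equal replicate numbers mark pools of the same mice could not be decided from the values, with only 3 samples per group. Correlations of same-numbered samples were -0.0547, 0.123 and 0.0539 for RVO with untreated, 0.0342, -0.0418 and 0.0864 for control with untreated and -0.190, -0.183 and 0.110 for RVO with control samples. With the replicate block, 2, 3 and 0 members were called in the 3 comparisons, as without it. Of all genes, edgeR with the block called 50.2%, 52.3% and 0% in that order. For RVO against control 7227 genes were under an unadjusted p of 0.05.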
